A study of Homo sapiens with 36 samples.

Results

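The genes described are the kinesin motor genes, the protein-coding genes of GENCODE 44 on GRCh38 whose symbol is KIF followed by a digit, or KIFC1, KIFC2 or KIFC3. This rule took 42 of 20033 protein-coding genes, and it used no measured value. Kinesin genes with other symbols, such as CENPE, are outside it. A cluster was counted for a gene when its midpoint lay in the gene body on the same strand. SCAF4 and SCAF8 are related nuclear proteins that bind RNA and the phosphorylated tail of RNA polymerase II, and the study asked where on RNA they sit. PAR-CLIP was used for this, in which cells take up 4-thiouridine (4SU), long-wave UV light crosslinks protein to the labeled RNA, and crosslinked stretches are read out as clusters.

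All groups were HEK293 Flp-In T-REx cells, an established human embryonic kidney line with a single recombination site for a transgene and a Tet repressor. SCAF4 cells and SCAF8 cells carried a FLAG-tagged copy of the respective protein that is switched on by doxycycline, beside their own SCAF genes, and the control cells were the parental line with no tagged protein. According to the labels 100 ng/mL doxycycline was given to SCAF4 and SCAF8 cells overnight, and they state no dose for control cells, whereas the methods give a higher dose and include the parental cells among those treated. All cells received 100 μM 4SU overnight and 500 μM 4SU for 2 h and were irradiated with 2000 J/m2 at 365 nm. From each line and replicate, RNA of the FLAG immunoprecipitate (IP) and of the extract before IP (input) was sequenced from soluble and chromatin fractions, 36 libraries in all, and the fractions were combined into 18 cluster lists, 3 for each of SCAF4 IP, SCAF8 IP, control IP and the 3 inputs. The transgene is expressed from an inducible promoter and not from the SCAF4 or SCAF8 gene, so levels of the tagged proteins are those of this construct. The study calls the replicates biological, but the labels do not say that they were separate cultures, so p-values measure the spread between these lists, which may be partly technical.

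The lists hold positions and not reads, and the sequencing depth behind them is unknown. The 6 lists of SCAF4 and SCAF8 IP, called SCAF IP lists, held 18287 to 54404 clusters, the 9 inputs 4567 to 12493 and the 3 control IP lists 1621 to 9638. Values were therefore given as a rate, the clusters of a gene per 10000 clusters of its list. A short list leaves more genes with no cluster at all, and the part of list size in the differences between groups was not tested. The lists hold no RNA levels, and other assays of the study were not used here, so more RNA of a gene and more protein per RNA cannot be told apart except through the inputs.

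Kinesins are motor proteins that use ATP to walk along microtubules or to take their ends apart. Kinesin-1, kinesin-2 and kinesin-3 motors carry organelles, vesicles and RNA-protein particles, and the ciliary members move cargo in the axoneme. A large group works in dividing cells, where it builds the spindle, aligns chromosomes or completes cytokinesis, and this group is abundant in proliferating lines such as HEK293.

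Regions that recurred between lists are shown first, because they are the stretches of kinesin RNA that the values below describe. Overlapping SCAF IP clusters of one strand were merged, and a region was kept when clusters of at least 2 SCAF IP lists lay in it. In the sequences, read from GRCh38 on the transcribed strand, capitals mark exon bases of the canonical isoform and small letters intron bases. The first 4 regions had a cluster in all 6 SCAF IP lists and none in any input or control IP list. They lay at chr10:92621322-92621500 (plus strand, around exon 10 of 22 of KIF11, the motor that pushes spindle poles apart), at chr11:28088561-28088677 (minus strand, in exon 6 of 17 of KIF18A, a kinesin-8 that aligns chromosomes), at chr10:89710960-89711153 (plus strand, exon 6 of 33 of KIF20B, a motor of cytokinesis) and at chr10:32018498-32018596 (minus strand, exon 21 of 26 of KIF5B, the ubiquitous heavy chain of kinesin-1).
KIF11 exon 10: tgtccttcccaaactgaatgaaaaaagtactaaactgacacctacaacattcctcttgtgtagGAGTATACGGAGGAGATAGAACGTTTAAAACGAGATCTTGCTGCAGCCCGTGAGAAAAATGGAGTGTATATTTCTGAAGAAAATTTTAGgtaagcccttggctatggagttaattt
KIF18A exon 6: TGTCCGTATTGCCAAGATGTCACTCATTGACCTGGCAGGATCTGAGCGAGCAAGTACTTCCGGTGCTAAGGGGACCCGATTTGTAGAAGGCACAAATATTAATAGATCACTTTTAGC
KIF20B exon 6: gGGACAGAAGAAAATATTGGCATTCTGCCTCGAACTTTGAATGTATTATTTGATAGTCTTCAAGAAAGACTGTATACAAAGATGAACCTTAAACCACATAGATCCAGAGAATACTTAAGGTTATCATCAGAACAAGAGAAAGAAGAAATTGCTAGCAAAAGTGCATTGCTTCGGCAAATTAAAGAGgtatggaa
KIF5B exon 21: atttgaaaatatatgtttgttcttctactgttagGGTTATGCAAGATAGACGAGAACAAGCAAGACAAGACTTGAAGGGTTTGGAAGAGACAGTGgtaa
The KIF5B and KIF11 regions take in the whole of their exon with intron bases on both sides, and the KIF20B region crosses both edges of its exon as well. Another pair of regions met the same condition but was longer, at 637 nt around exon 1 of KIF5B and 405 nt in exon 7 of KIFC1, a minus-end-directed motor of the spindle.

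KIF15, a kinesin-12 that holds the spindle bipolar beside KIF11, is the gene in which SCAF IP and input lists lay farthest apart. A pair of its regions, at chr3:44801840-44801973 in exon 13 of 35 and chr3:44829940-44830071 at the start of exon 25, both on the plus strand, had clusters of 5 SCAF IP lists, no input and no control IP. The KIF1B region at chr1:10324769-10324897 (plus strand, exon 26 of 49) is shown because all 3 SCAF8 IP lists and no SCAF4 IP list had a cluster there.
KIF15 exon 13: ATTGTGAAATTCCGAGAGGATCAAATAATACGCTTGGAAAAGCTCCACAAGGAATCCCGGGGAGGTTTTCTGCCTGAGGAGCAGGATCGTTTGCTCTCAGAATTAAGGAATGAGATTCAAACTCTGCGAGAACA
KIF15 exon 25: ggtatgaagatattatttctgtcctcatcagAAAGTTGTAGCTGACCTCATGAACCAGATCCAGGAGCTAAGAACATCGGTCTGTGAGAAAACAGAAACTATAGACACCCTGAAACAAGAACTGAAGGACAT
KIF1B exon 26: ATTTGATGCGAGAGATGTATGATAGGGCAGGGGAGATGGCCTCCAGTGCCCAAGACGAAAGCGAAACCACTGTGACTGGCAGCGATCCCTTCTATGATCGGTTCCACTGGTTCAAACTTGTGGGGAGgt
The KIF15 region at exon 25 begins in the intron before the exon, and the KIF1B region ends just past the exon's last base.

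Clusters of SCAF IP lists were found in 30 of the 42 kinesin genes (71.4%), against 9709 of all 20033 protein-coding genes (48.5%). The median kinesin gene spanned 55803 nt and the median gene overall 27471 nt. A cluster in all 6 SCAF IP lists was present for 16 kinesin genes (38.1%) and for 18.3% of all genes. No list of any kind held a cluster in KIF2B, KIF3C, KIF6, KIF12, KIF16B, KIF17, KIF19, KIF21B, KIF25, KIF26A, KIF26B or KIFC3. These 12 include motors known mainly from neurons, cilia or testis, such as KIF17, KIF3C, KIF19 and KIF2B. Other motors of neurons or cilia had clusters in all 6 SCAF IP lists, however, with 22 in KIF1A, 31 in KIF5C and 21 in KIF3B. Between 1 and 4 clusters over all 6 SCAF IP lists were found in KIF4B, KIF5A, KIF9, KIF13A, KIF13B, KIF24, KIF27 and KIFC2.

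Of the 850 kinesin clusters in SCAF IP lists, 396 (46.6%) lay in 5 genes. KIF23, a subunit of the centralspindlin complex of cytokinesis, held 108, and KIF18B, which acts on astral microtubule ends, held 80. KIF22, a chromokinesin that binds chromosome arms, held 71, KIF11 held 69 and KIF5B held 68. By family, the mitotic motors of the kinesin-5, kinesin-6 and kinesin-12 families held 280 clusters (32.9%) in 5 of their 6 genes. The kinesin-8 and kinesin-13 genes, whose products shorten or cap microtubule ends, held 166 (19.5%) in 5 of 7 genes. The cargo motors of kinesin-3 held 106 (12.5%) in 6 of 7 genes, a family to which the cytokinesis motor KIF14 also belongs, and those of kinesin-1 held 101 (11.9%) in all 3 genes. Kinesin-4, which includes the chromokinesin KIF4A and the Hedgehog regulator KIF7, held 54 (6.35%), kinesin-14 held 45 (5.29%) and kinesin-2 held 26 (3.06%).

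**Figure D1:**
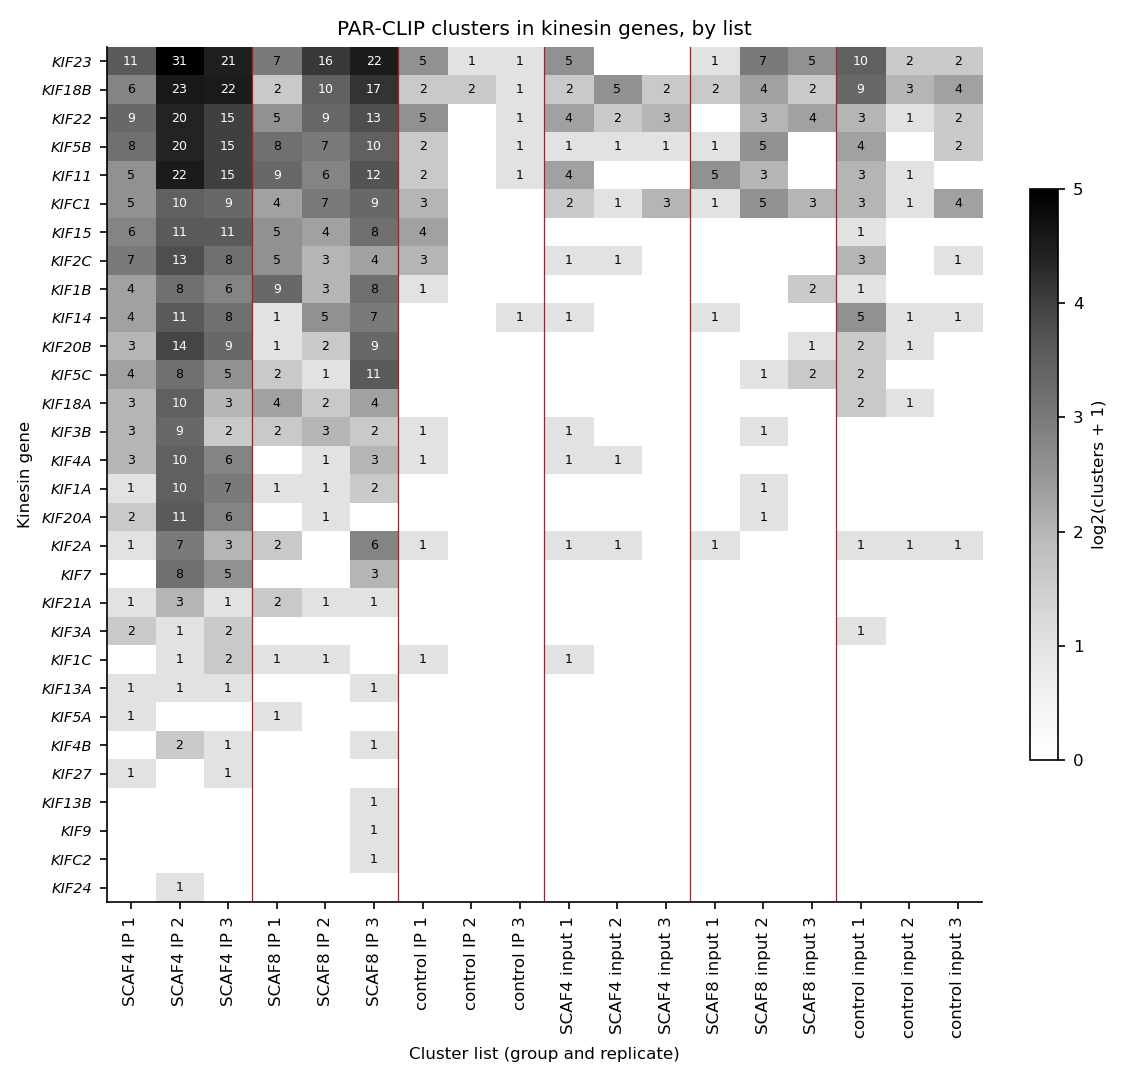
Number of clusters in each of the 30 kinesin genes with a SCAF IP cluster (vertical axis, ordered by mean SCAF IP rate) in each of the 18 lists (horizontal axis, 3 replicates a group); the shade is log2(clusters + 1) and the number printed is the count. KIF23 reached 31 clusters in SCAF4 IP replicate 2 and 22 in SCAF8 IP replicate 3, and the lower genes have clusters almost only in SCAF IP lists, which are also the longest lists.

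As a family, kinesin genes took 47.9, 48.7 and 54.2 clusters per 10000 in SCAF4 IP replicates 1, 2 and 3, and 28.2, 45.4 and 37.6 in SCAF8 IP. The rates were 32.2, 12.96 and 37.0 in the control IP, where the lists hold only 31, 3 and 6 kinesin clusters. SCAF4 inputs had 20.5, 23.5 and 18.8, SCAF8 inputs 13.1, 29.9 and 21.1, and control inputs 40.0, 26.3 and 33.5 clusters per 10000. All 3 SCAF4 IP lists therefore lay above all 9 inputs, whereas SCAF8 IP overlapped with the inputs of its own line across replicate numbers. Within each number, every SCAF4 and SCAF8 IP list lay above its own input (for SCAF8 28.2 and 13.1, 45.4 and 29.9, 37.6 and 21.1). Control IP did so in replicate 3 alone (37.0 and 33.5). The highest input lists were control input replicates 1 and 3. The mean was 43.7 ± 9.31 (SD, n = 6) over SCAF IP lists and 25.2 ± 8.22 (n = 9) over inputs, and the difference of 18.5 stayed between 17.0 and 21.0 when each replicate in turn was left out.

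**Figure D2:**
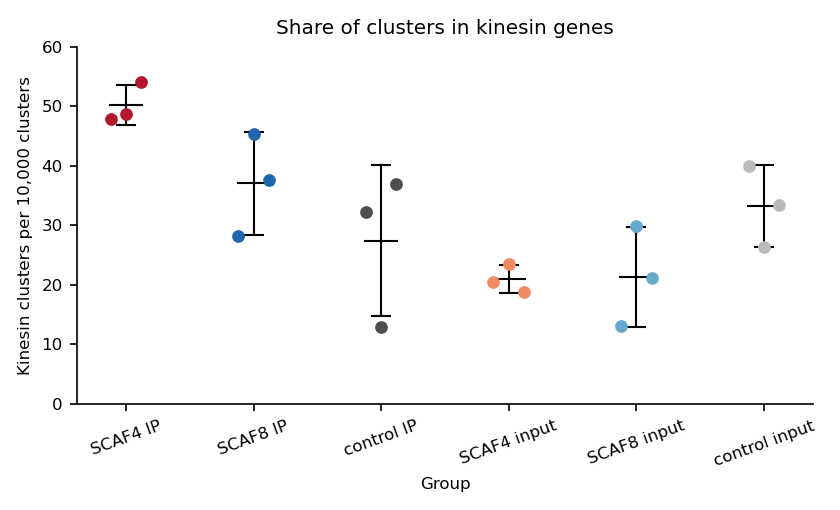
Clusters in kinesin genes per 10000 clusters of the list (vertical axis) in the 6 groups (horizontal axis); points are the 3 replicates in order, and the bar is the mean with its SD. SCAF4 IP lists lie between 47.9 and 54.2, above every input, and SCAF8 IP lists between 28.2 and 45.4.

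Gene by gene, SCAF IP rates were set against those of the 9 inputs with a two-sided exact permutation test, adjusted by the Benjamini-Hochberg method over all 6960 genes with at least 5 clusters. Of the 42 kinesin genes 22 could be tested, and the remaining 20 had too few clusters. At an adjusted p below 0.05, 5 were higher in SCAF IP (22.7% of those tested), close to the background of 23.6% of all genes called in that direction. None was lower, against a background of 4.35%, and 11 of the 22 had an unadjusted p below 0.05. The median difference was 0.8294 clusters per 10000 over the 22 genes and 0.254 over all tested genes. It was positive in 19 of 22, as in 69.7% of all. Genes could reach the minimum count through SCAF IP lists alone, which held 192335 clusters against 72277 in the inputs. No input cluster was found for 2 of the 22 (KIF7 and KIF21A) and 1349 of all tested genes, whose difference could only be positive.

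The 5 genes that rose over input were KIF15, KIF21A, KIF1B, KIF3B and KIF1A. KIF15 (chr3:44761721-44873376, plus strand) had SCAF IP rates of 1.93 at lowest, 2.10 at the median and 3.24 at highest, and a single cluster in the 9 inputs together. The difference of 2.33 clusters per 10000 (2.42 ± 0.610, n = 6, against 0.0889 ± 0.267, n = 9) had an exact permutation p of 0.0001998, the smallest possible here, and an adjusted p of 0.00504. At the SCAF IP share the inputs would have held 16.9 KIF15 clusters. No SCAF IP list overlapped with any input for this gene. Control IP replicate 1, however, held 4 KIF15 clusters, and the remaining control IP lists held none.

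KIF21A (chr12:39293228-39443390, minus strand), a kinesin-4 that restrains microtubule growth at the cell cortex, was the other gene without overlap, which 3.68% of all tested genes showed. It had 1, 3 and 1 clusters in the SCAF4 IP lists, 2, 1 and 1 in the SCAF8 IP lists and none in any other list. Its rate of 0.492 ± 0.200 against 0 had an adjusted permutation p of 0.00504. Since 3.38 clusters would have been expected in the inputs at the SCAF IP share, a count of 0 there lies close to what the length of the input lists can show.

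KIF1B (chr1:10210570-10381603, plus strand) and KIF1A (chr2:240713761-240824293, minus strand) are related kinesin-3 motors that carry synaptic vesicle precursors, and KIF1B isoforms also carry mitochondria. KIF1B had SCAF IP rates from 1.47 over a median of 1.85 to 3.57 and input rates from 0 to 2.22, with 3 clusters found in the inputs where 14.3 would have been expected. Its difference was 1.75 per 10000 (adjusted permutation p = 0.0137), and the highest input lay above every SCAF IP list except SCAF8 IP replicate 1. KIF1A had SCAF IP rates of 0.397, 0.537 and 2.06 at lowest, median and highest, and 1 input cluster where 8.27 would have been expected. Its difference was 0.868 (adjusted permutation p = 0.0312), with both high values in SCAF4 IP replicates 2 and 3. KIF3B (chr20:32277651-32335011, plus strand), which pairs with KIF3A in the kinesin-2 motor of cilia, had SCAF IP rates of 0.482 to 1.65 and input rates of 0 to 0.965. Its difference was 0.921 (adjusted permutation p = 0.0211), with overlap between groups.

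These calls changed with the replicate left out. Without replicate 3 none of the 5 passed, and none of all genes did either, whereas KIF15 and KIF21A passed without replicate 1 (adjusted permutation p = 0.0292) and without replicate 2 (0.0453). Fewer lists leave fewer label splits, which raises the smallest p the permutation test can give. Without replicate 3, KIF15 and KIF21A shared an adjusted permutation p of 0.0704 with KIF1B, although every SCAF IP list of both lay above every input. Their lost calls therefore cannot be read as dependence on replicate 3. KIF1B and KIF3B also lost their call without replicate 1 and without replicate 2, and KIF1A without replicate 1. Over the alternatives tried, adjusted p ranged from 0.000109 to 0.0704 for KIF15, from 0.000911 to 0.165 for KIF21A, from 0.00206 to 0.135 for KIF1B, from 0.0109 to 0.156 for KIF3B and from 0.00961 to 0.476 for KIF1A. On simulated lists of these sizes the test gave somewhat more calls among unchanged genes than its threshold allows, which bears on calls from few clusters such as those of KIF21A, KIF3B and KIF1A.

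The genes with the most clusters were not among those called. KIF23 (chr15:69414246-69448427, plus strand) had SCAF IP rates of 2.78 to 8.75 and input rates of 0 to 8.004, and its means of 5.75 ± 1.91 and 3.78 ± 2.88 gave an adjusted permutation p of 0.308. KIF18B (chr17:44924709-44947773, minus strand) averaged 4.04 ± 1.97 in SCAF IP and 5.06 ± 2.89 in inputs (adjusted permutation p = 0.638). KIF22 (chr16:29790727-29805385, plus strand) averaged 3.81 ± 1.12 and 3.27 ± 1.73 (adjusted permutation p = 0.689). For all 3 genes the ranges of SCAF IP and input lists overlapped widely. In these genes the inputs held 32, 33 and 22 clusters where 40.6, 30.1 and 26.7 would have been expected at the SCAF IP share.

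KIF11 (chr10:92574105-92655395, plus strand) had SCAF IP rates of 2.63 to 4.42 and input rates of 0 to 5.47 (adjusted permutation p = 0.175). KIF5B (chr10:32009015-32056425, minus strand) had 2.41 to 4.42 and 0 to 4.83 (adjusted permutation p = 0.128). In both genes some inputs held no cluster, while the highest input exceeded every SCAF IP list. KIF20B (chr10:89701590-89774939, plus strand) averaged 1.74 ± 0.889 against 0.545 ± 0.860 (adjusted permutation p = 0.0863), and KIF2C (chr1:44739818-44767767, plus strand), the kinesin-13 that frees wrongly attached kinetochores, 2.17 ± 0.911 against 0.798 ± 1.03 (adjusted permutation p = 0.0708). Neither passed the threshold. KIFC1 and KIF2A were the only tested kinesin genes besides KIF18B with a higher mean rate in the inputs, and neither difference passed (adjusted permutation p = 0.496 and 0.822). All 26 KIF2A clusters of the 18 lists also lay in a second annotated gene of the same strand, so their assignment to KIF2A is uncertain.

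**Figure D3:**
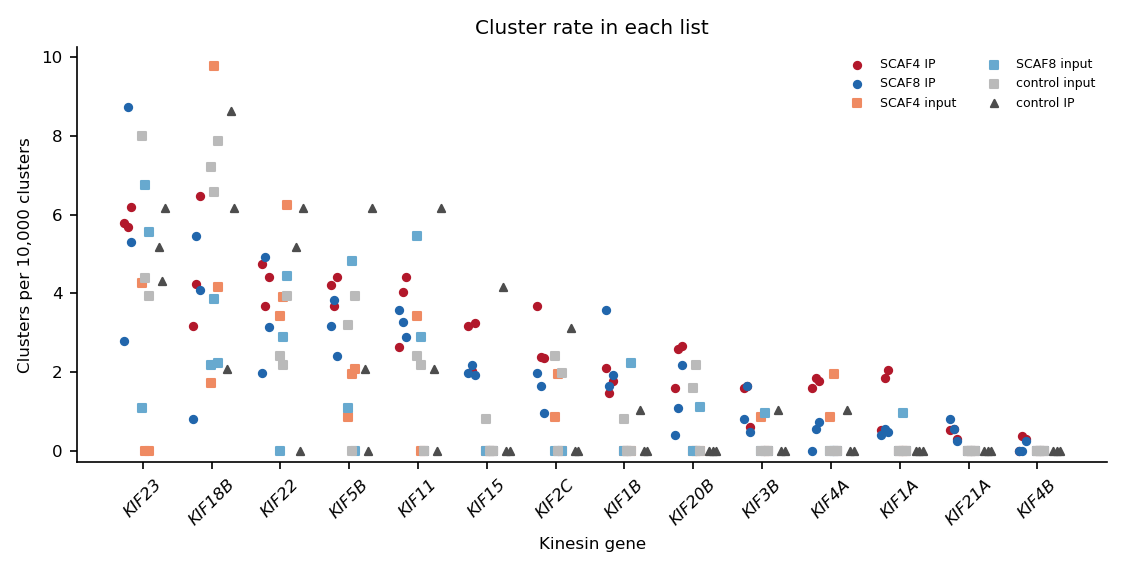
Clusters per 10000 clusters of the list (vertical axis) for the 14 kinesin genes described in full (horizontal axis, ordered by mean SCAF IP rate); each point is a list, circles are SCAF4 and SCAF8 IP, squares the 3 inputs and triangles the control IP. In KIF15 and KIF21A every circle lies above every square, whereas in KIF23, KIF18B and KIF22 circles and squares overlap.

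The control IP measures what the FLAG IP brings down without a tagged protein. Against it, exact permutation tests of 6 lists with 3 cannot give a p below 0.0119, and the smallest adjusted p over 6710 genes was 0.0857. The test called 0% of all genes in either direction, although 1700 had an unadjusted p below 0.05, and so 0 of the 22 kinesin genes tested (5 with unadjusted p below 0.05). Every SCAF IP list lay above every control IP list for 6 of the 22, namely KIF1A, KIF1B, KIF5C, KIF18A, KIF20B and KIF21A, beside 16.4% of all genes. A limma fit on log2(rate + 1), chosen as an alternative, called 1508 genes and these same 6 kinesin genes. Of these, KIF20B had 3, 14 and 9 clusters in SCAF4 IP and 1, 2 and 9 in SCAF8 IP, and the axonal transport motor KIF5C had 4, 8 and 5 and 2, 1 and 11. In all 3 control IP lists KIF1A, KIF5C, KIF18A, KIF20B and KIF21A were without a cluster, and KIF1B had 1. With 13573 clusters in the 3 control IP lists together, the SCAF IP share would have put 2.68 KIF20B clusters there, so these zeros say little about single genes.

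KIF15 differed here from its comparison with inputs, with 1.38 ± 2.40 (n = 3) in control IP and 2.42 ± 0.610 in SCAF IP, which gave an adjusted permutation p of 0.494. Its 4 control IP clusters were all in replicate 1, the longest of the control IP lists. KIF23 had 5, 1 and 1 clusters in control IP and a mean of 5.23 ± 0.924 there against 5.75 ± 1.91 in SCAF IP, and KIF18B had 5.63 ± 3.32 against 4.04 ± 1.97. Neither difference passed the test (adjusted permutation p = 0.698 and 0.510).

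SCAF4 IP and SCAF8 IP were compared with limma on log2(rate + 1), 3 lists against 3. None of 22 kinesin genes passed an adjusted p of 0.05 in either direction, with backgrounds of 0.226% of 6648 genes called higher in SCAF4 IP and 0.286% called lower, and 5 had an unadjusted p below 0.05. Of the 22, 18 had a higher mean in SCAF4 IP, as did 57.6% of all genes tested, and the median log2 difference was 0.31 against 0.07. All 3 SCAF4 IP lists lay above all 3 SCAF8 IP lists for 4 kinesin genes, namely KIF2C, KIF3A, KIF4A and KIF20A, beside 10.4% of all genes.

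KIF20A, a kinesin-6 that brings regulators of cytokinesis to the central spindle and is named here because of its values, had 2, 11 and 6 clusters in SCAF4 IP and 0, 1 and 0 in SCAF8 IP. Its log2 difference was 1.16 (SE 0.27, 95% interval 0.58 to 1.73), with a limma adjusted p of 0.0701. KIF4A (chrX:70290104-70420886, plus strand), a chromokinesin that sets the length of the central spindle, had 3, 10 and 6 clusters in SCAF4 IP and 0, 1 and 3 in SCAF8 IP, a log2 difference of 0.98 (SE 0.27, 0.41 to 1.54) and a limma adjusted p of 0.111. Neither passed the threshold, and over the alternatives the adjusted p ranged from 0.00997 to 0.594 for KIF20A and from 0.0292 to 0.494 for KIF4A. KIF20A passed without the filter on few clusters, KIF20A and KIF4A when replicate numbers were taken as a block, and KIF20A and KIF1A when replicate 1 was left out (limma, adjusted p = 0.0117 and adjusted p = 0.0330). KIF1A had 1, 10 and 7 clusters in SCAF4 IP and 1, 1 and 2 in SCAF8 IP (log2 difference 0.68, limma, adjusted p = 0.322).

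For the genes with most clusters the interval of the SCAF4 to SCAF8 difference took in 0. It was −0.47 to 0.80 on the log2 scale for KIF23, −0.42 to 0.67 for KIF11 and −0.30 to 1.27 for KIF18B. KIF1B was the kinesin gene with the lowest value, at −0.25 (−0.82 to 0.33), from 4, 8 and 6 clusters in SCAF4 IP and 9, 3 and 8 in SCAF8 IP. Its highest rate was in SCAF8 IP replicate 1, the SCAF IP list with the lowest rate over all kinesin genes.

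Merging gave 190 regions in 26 kinesin genes that recurred in at least 2 of the 6 SCAF IP lists, of 39086 regions in 7882 protein-coding genes. Clusters of both proteins lay in 137 of them (72.1%), against 77.9% over all genes. Only SCAF4 IP lists had clusters in 48 (25.3%, against 16.4%) and only SCAF8 IP lists in 5 (2.63%, against 5.64%). The 5 regions seen in SCAF8 IP alone were 4 in KIF1B and 1 in KIF23. A cluster in all 6 lists was found in 25 regions (13.2%, against 15.1%), of which KIF22 and KIF5B had 4 each and KIF11 and KIF23 had 3 each. SCAF4 IP lists held 107357 clusters and SCAF8 IP lists 84978, and the part of that difference in the regions of a single protein was not tested.

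KIF23 had 25 regions, 21 of them with both proteins, and the exonic ones ran from exon 3 to exon 24 of 24. Clusters of all 6 SCAF IP lists lay in its regions at exons 10, 11 and 13, each reaching past both edges of its exon. These regions also overlapped clusters of 1, 3 and 4 input lists and of 0, 2 and 1 control IP lists, respectively. KIF18B had 20 regions, KIF11 18, KIF22 16 and KIF5B 13. KIF20B followed with 11, KIF15 with 10, KIF2C and KIF1B with 9 each, and KIF5C and KIFC1 with 7 each. All 10 KIF15 regions lay in coding exons, from exon 3 to exon 33 of 35, and 8 had clusters of both proteins. A control IP cluster overlapped 4 of them, at exons 7, 8, 29 and 33. These include both KIF15 regions with clusters of all 6 SCAF IP lists, at exons 8 and 29. In KIF2C, 4 of 9 regions had SCAF4 IP clusters only, and these were at exons 16, 18, 19 and 20 of 21, while its regions from exon 1 to intron 8 had clusters of both. KIF21A had a region at exon 21 and a region at exon 32 of 38, each crossing the 5' splice site behind the exon, and KIF3B had a pair in its coding exon 2 and a pair in its 3' UTR.

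By position in the canonical isoform, 148 of the 190 regions (77.9%, exact 95% interval 71.3 to 83.6) had their midpoint in an exon, against 63.3% over all genes. Exons make up 7.46% of the length of these 26 genes. Coding exons held 135 regions (71.1%, against 47.8%), 3' UTRs 12 (6.32%, against 12.6%), 5' UTRs 1 (0.5263%, against 2.86%) and introns 42 (22.1%, against 32.6%). Of the 42 intronic regions 12 lay in the first intron. The intervals cover counting error only, and regions of the same gene are not independent.

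Among the 148 exonic regions 129 (87.2%) were in internal exons, 5 (3.38%) in the first and 15 (10.1%) in the last exon, and the shares over all genes were 65.2%, 8.90% and 27.1%. A single-exon gene counts as both first and last. Along the spliced isoform the exonic regions lay toward the 5' end, with a median at 31.2% of its length (32.1% over all genes), and the 4 equal stretches from 5' to 3' held 54, 49, 33 and 12 regions. The last stretch held 8.11% of kinesin regions and 11.3% of all.

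**Figure D4:**
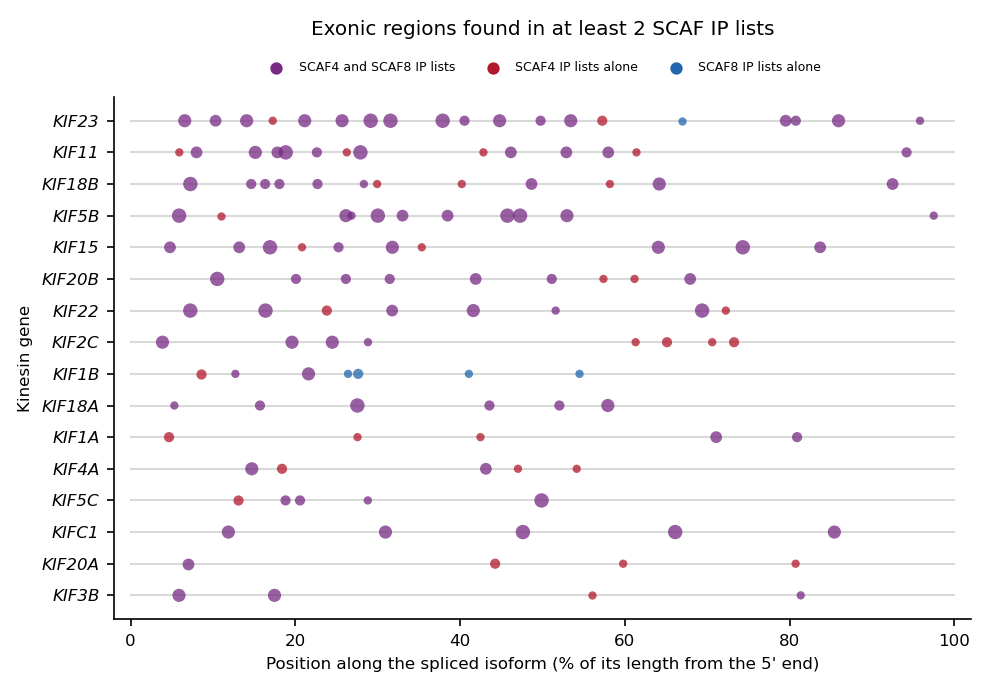
Midpoints of the 132 exonic regions of the 16 kinesin genes with at least 4 of them (vertical axis), along the spliced canonical isoform in % of its length from the 5' end (horizontal axis); colour gives the proteins with a cluster in the region and the area of a point is proportional to the number of SCAF IP lists. Regions seen in SCAF8 IP alone are 4 in KIF1B and 1 in KIF23, and those of KIF2C in its 3' part are SCAF4 IP alone.

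Most regions reached over an exon edge. Of 189 regions in genes with introns, 117 (61.9%) crossed a splice site of the canonical isoform, against 43.6% over all genes. A 5' splice site lay in 94 (49.7%, against 33.3%), a 3' splice site in 73 (38.6%, against 28.3%) and both in 50 (26.5%, against 17.9%). Wholly exonic and wholly intronic regions numbered 36 each (19.0%, against 24.4% and 27.3%). Regions had a median length of 180 nt in kinesin genes and 193 nt over all genes, and 1 region touched 2 exons. Since merging joins the clusters of several lists, a region that crosses an edge need not hold a single cluster that does.

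Base composition was compared with that of regions over all genes, for all regions and for coding exon regions alone. In 100 nt around the midpoint, on the transcribed strand, kinesin regions had a median GC content of 45% against 49% over all genes and a median T content of 23% against 24%. The letters CGG or CGA were present in 57.9% of kinesin regions and 67.1% of all, CCAGC or CCAGG, or the same with G as the leading base (GCAGC or GCAGG), in 38.9% and 43.5%, and CTCC or CACC in 46.3% and 48.8%. Among coding exon regions alone the same shares were 61.5% and 76.1%, 40.0% and 46.1%, and 48.1% and 51.4%, with a GC content of 45% and 50%. Each motif was therefore less frequent in kinesin regions than over all genes, as was G plus C itself, and no test was made.

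In single clusters the exonic share was 76.3% (412 of 540) for SCAF4 IP, 76.5% (237 of 310) for SCAF8 IP and 77.5% (31 of 40) for control IP, whereas inputs had 55.9% (104 of 186, exact 95% interval 48.5 to 63.2). Over all protein-coding genes the shares were 64.5%, 61.3%, 69.6% and 57.5%. List by list, the exonic share of kinesin clusters was 73.7% at lowest, 76.1% at the median and 81.9% at highest in SCAF IP lists, from 71 to 265 clusters each. In the 9 inputs it was 25%, 52% and 75%, from 9 to 50 clusters each, and in the 3 control IP lists 66.7%, 66.7% and 80.6%, from 3 to 31 clusters each. Only the highest input thus reached into the SCAF IP range, and 1 of 3 control IP lists lay within it. Coding exons held 70.7% of kinesin clusters in SCAF4 IP, 65.8% in SCAF8 IP, 67.5% in control IP and 46.2% in inputs, and 3' UTRs held 4.63%, 8.71%, 10% and 9.68%.

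**Figure D5:**
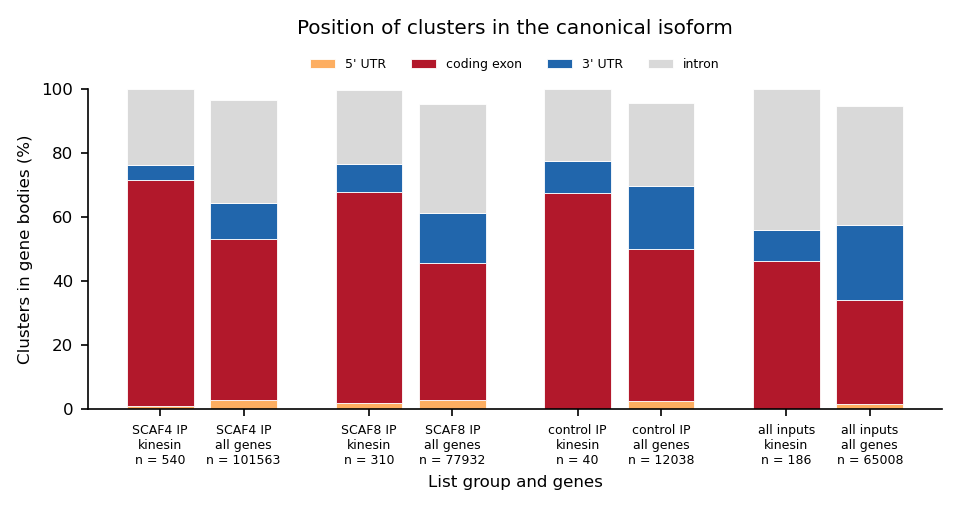
Share of clusters (vertical axis, %) with the midpoint in a 5' UTR, coding exon, 3' UTR or intron of the canonical isoform, for kinesin genes and all protein-coding genes in SCAF4 IP, SCAF8 IP, control IP and all inputs (horizontal axis, with the number of clusters, those in overlapping genes counted for each gene); bars end below 100% where midpoints lay in the gene but outside its canonical isoform. Introns take 23.5%, 23.2% and 22.5% of kinesin clusters in the 3 IP groups and 44.1% in inputs, against 31.9%, 33.9%, 25.9% and 37.2% over all genes.

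Regions were removed by background in steps modelled on the study, with order, unit of overlap and density chosen here. These steps took different kinesin genes. Dropping regions that touched clusters in 2 or more of the 9 input lists left 148 of 190 (77.9%, against 73.2% over all genes). Dropping genes in which input regions, once merged, reached 1 per 10 kb left 70 in 18 genes (36.8%, against 39.2%). Dropping what a control IP cluster touched left 63 pooled regions in 17 genes (33.2%, against 36.2%).

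The density step removed every region of KIF11, KIF18B, KIF20A, KIF22, KIF23, KIF2C, KIF5B and KIFC1, which include the 5 genes with most clusters. KIF11 was under the limit without replicate 1 (16 pooled regions) and without replicate 2 (7), KIF2C without replicate 1 (8) and KIF20A without replicate 2 (2), while KIF18B, KIF22, KIF23, KIF5B and KIFC1 had no pooled region without any of the replicates. Their input regions per 10 kb were 8.19 in KIF22, 6.07 in KIF18B, 5.27 in KIF23 and 3.32 in KIFC1, but 1.48 in KIF5B, 1.43 in KIF2C and 1.11 in both KIF11 and KIF20A, close to the limit. With the flanks counted into the gene's length, KIF20A fell under the limit with 4 pooled regions and the other 7 genes did not. Over all protein-coding genes 2638 reached the limit, with or without a SCAF IP region. Genes with a region left fell from 7341 to 5102 at this step. Without it, 134 pooled regions were left in kinesin genes.

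Of the 63 pooled regions KIF20B had 10, KIF1B 8, KIF15 and KIF18A 6 each, KIF1A and KIF5C 5 each, KIF4A and KIF7 4 each and KIF3B 3. By family, kinesin-3 had 16, the mitotic kinesin-5, kinesin-6 and kinesin-12 genes had 16, kinesin-4 had 12, kinesin-8 and kinesin-13 had 8, kinesin-1 had 6 and kinesin-2 had 5. Both proteins shared 38 of them, 21 had SCAF4 IP clusters only and 4 SCAF8 IP clusters only, and the KIF18A and KIF20B regions printed above were the 2 with clusters in all 6 lists. Exonic midpoints made up 51 of 63 (81.0%, exact 95% interval 69.1 to 89.8) on the isoform with most exonic bases and 55 (87.3%, 76.5 to 94.4) on the canonical isoform, beside 68.2% and 70.1% over all genes. The number of pooled regions was 37 when clusters of 3 lists were required.

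KIF4B is an intronless copy of KIF4A, and its clusters cannot be assigned with certainty. Its only region, at chr5:155014220-155014639 on the plus strand, had clusters of 2 SCAF4 IP lists. It is identical to spliced KIF4A exons 4 to 8 at 413 of 420 bases (98.3%), where KIF4A itself held 8 SCAF IP clusters. The pair is shown over 100 bases around a splice junction of KIF4A (exons 5 and 6 joined, chrX:70299163-70301959) and the same stretch of KIF4B (chr5:155014336-155014435), with capitals at the 3 bases that differ.
KIF4B: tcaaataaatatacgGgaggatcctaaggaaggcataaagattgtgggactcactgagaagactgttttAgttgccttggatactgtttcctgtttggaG
KIF4A spliced: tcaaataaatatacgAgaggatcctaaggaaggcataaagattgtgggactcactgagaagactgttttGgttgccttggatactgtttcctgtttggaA
A read from spliced KIF4A RNA across this junction can be placed on KIF4B without a gap. Values of both genes are uncertain for this reason, and the other kinesin genes were not compared for near-identical copies.

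Genes that work with kinesins were looked at as a list of 18, including light chains, cargo adaptors and spindle partners. The list also held CENPE and STARD9, which are kinesin motors themselves but have symbols that the rule does not take. Of 13 tested against inputs 5 were higher and 1 was lower, beside 23.6% and 4.35% of all genes, and 0 were called in the other comparisons. The 5 were SPAG9 (adjusted permutation p = 0.0237), TRAK1, KLC4 and STARD9 (0.0407 each) and CENPE (0.049996), of which KLC4 is a light chain of kinesin-1, TRAK1 its mitochondrial adaptor, SPAG9 a JIP-family adaptor and CENPE a kinetochore motor. TRAK1, KLC4 and STARD9 had SCAF IP rates of 0.283, 0.660 and 0.238 and no input cluster, so they reached the minimum count through SCAF IP lists alone. A count of 0 over all inputs allows rates up to 0.415 per 10000, which is above those of TRAK1 and STARD9. MAPK8IP3, another JIP-family adaptor, was lower at 5.70 against 14.8 clusters per 10000 (adjusted permutation p = 0.0403). These genes are named because of their values. The most regions were in PRC1 (18), the microtubule bundler that recruits KIF4A, TPX2 (15), which binds KIF11 on the spindle, and RACGAP1 (14), the partner of KIF23 in centralspindlin, none of which had a pooled region, and in the kinesin-1 light chain KLC1 (14, with 9 pooled).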

How the data were processed

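The authors pulled down FLAG-tagged protein from soluble and chromatin extracts, sequenced the bound RNA and the input, and called clusters with PARalyzer on both fractions together. The submitters' processing notes name bcl2fastq 1.8, Trim Galore, cutadapt, Bowtie2 2.2.9, Picard and GRCh38. The deposited lists give chromosome, start, end, strand and a score from 0.501 to 1 whose meaning is not named. It served only in an alternative that kept the higher-scored clusters of each list. Starts were taken as counted from 0 and are printed counted from 1. Replicate 1 was sequenced with longer reads than replicates 2 and 3. The lists were deposited before the study's background filters, and no read depth can be had from them, so intervals cover counting error only.

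Samples were grouped by the line, IP or input and replicate number in their labels. Genes and canonical isoforms came from GENCODE 44. Clusters were counted in gene bodies by midpoint and strand. Genes with at least 5 clusters over the lists compared were tested by two-sided exact permutation of rates (SCAF IP against inputs and against control IP) or with limma, with a trend, on log2(rate + 1) (SCAF4 IP against SCAF8 IP), with Benjamini-Hochberg adjustment over all genes tested. Tools were R 4.3.3 with limma 3.58.1, and Python 3.11.15 with pandas 2.3.3, numpy 2.4.6, pysam 0.24.0, scipy 1.17.1 and matplotlib 3.10.9. The tests were tested on simulated data. There, large changes were planted only in genes with high rates, and most of them had an unadjusted p below 0.05 in each test. This does not show that they would pass the adjusted threshold. Lists of unequal size gave somewhat more calls among unchanged genes than the threshold allows. How often small differences in genes with few clusters would be found was not tested.

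Regions overlapping by at least 1 nt were merged. Removal by background was modelled on the study, which names input overlap, input density and absence from the untagged control. The order of steps, input lists rather than single input clusters as the unit of overlap, and the density are choices made here. Density was the number of merged regions of all 9 inputs in a gene and its 2 kb flanks, divided by the gene's length without flanks, since the methods do not say how it was counted. Feature classes, exon ranks and splice sites refer to the canonical isoform, a choice made after the data were seen, because the isoform with most exonic bases is not coding in some kinesin genes. Alternatives were limma on rates with pseudocounts, other minimum counts, the higher-scored clusters of each list, a replicate block, other region rules and leaving out each replicate.

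The genes described in full were the 8 with most regions, every kinesin gene called in a comparison, and the paralogs KIF4A and KIF4B. The kinesin genes and the lists were chosen with earlier results of these data known. IP and input of a line and number came from a shared extract, per the methods, so line and number pair them. The main test did not use this pairing, and the replicate block took the number alone, across lines. Deviations from group means, over genes with at least 20 clusters, correlated at 0.0207 to 0.424 for an IP and its own input and at −0.321 to 0.188 for different numbers. Protein sequences were not used here.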

Additional observations from a re-analysis of the deposited data

Results flagged for a closer look

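A list lay far from the rest of its group in 5 of 30 sets of lists looked at for the kinesin genes described in full. For normally distributed values chance gives this in about 1 of 20 sets, but where nearly all lists are at 0 a single cluster is enough. Among the inputs, KIF15 had 0.8004 clusters per 10000 in control input replicate 1 and none in any other input. KIF1A had 0.965 in SCAF8 input replicate 2 and none in any other input. Both values are a single cluster. KIF1B had 2.22 in SCAF8 input replicate 3, where the next highest input had 0.8004, and KIF4A had 1.96 in SCAF4 input replicate 2, where the next had 0.854. Among SCAF IP lists, KIF1B had 3.57 in SCAF8 IP replicate 1, and the next highest list had 2.11. In 0 of the genes did all lists of SCAF4 and SCAF8 move in opposite directions.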

How the results depend on the processing

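Of the alternatives for counts and shares, 82 values stayed within 1.5 times or the replicate spread and 25 moved. For single genes 555 values kept their side of the threshold, 22 passed it newly, 13 lost it and 0 reversed.

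Against inputs, 5 kinesin genes were higher. The number was 11 with limma on log2(rate + 1) and 9 with a pseudocount of 5, where calls over all genes rose from 1947 to 2426 and 2202. It was 3 with only clusters scored no lower than their list's median, where the calls over all genes fell to 450 on fewer clusters. Leaving out each replicate gave 0 to 3 kinesin genes and 0 to 1213 genes in all (1213 without replicate 1, 620 without replicate 2 and 0 without replicate 3). Fewer lists also raise the smallest p that the permutation test can give. Against control IP, limma called 1508 genes and 6 kinesin genes where the permutation test called none. Between SCAF4 and SCAF8 IP, 34 genes were called. Without the filter on few clusters there were 125 with 1 kinesin gene, with the higher-scored clusters 10, and without a replicate 0 to 270 genes with 0 to 2 kinesin genes (270 without replicate 1, and 0 without replicate 2 or 3). The causes of these shifts were not tested.

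The replicate block called 1563 genes and the same 5 kinesin genes against inputs. SCAF4 and SCAF8 IP came from separate lines and share only a number (same-number correlations −0.0374 to 0.388). There the block called 209 genes with 2 kinesin genes, KIF20A (adjusted p = 0.00997) and KIF4A (0.0292).

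Pooled kinesin regions numbered 63, but 37 from at least 3 lists, 134 without the density step and 35 to 91 when a replicate was left out (35 without replicate 3). Their exonic share of 81.0% was 92.1% when any isoform counted, since more bases are then exonic, and 77.1% to 81.3% without a replicate. Kinesin genes with a SCAF IP cluster numbered 30, and 27 to 29 without a replicate, an alternative chosen after seeing the data, as were the rate difference without a replicate and the density over gene and flanks, which gave 67 pooled regions and 82.1% exonic. Single clusters in inputs and control IP limit what their lists can show for genes of low rate.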
